A study of Mus musculus with 17 samples.

Results

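The RGS genes encode the regulators of G protein signalling, and 8 of them (Rgs1, Rgs2, Rgs3, Rgs10, Rgs14, Rgs16, Rgs18 and Rgs19) were followed here through sorted mouse Th2 cells. They were taken by symbol from tables of 24537 genes, and all 8 were found, each under the same RefSeq transcript in every table. The 8 were chosen on values already measured in these same libraries, so their own differences between groups stand as a description, with fold change and standard error and no p-value. RNA of the sorted cells was read out by Smart-seq2, which suits small cell numbers, and gave 17 libraries in 6 groups. Airway reporter cells (3 libraries) and lymph node reporter cells (3) came from Gata3-YFP mice, called GATIR, in which a fluorescent protein marks cells with an active Gata3 gene; the first were washed from the airways by bronchoalveolar lavage and the second came from the mediastinal node that drains the lung. Node knockout cells (4) and node wild type cells (3) came from the same node of OTII mice, whose CD4 T cells carry 1 transgenic receptor for ovalbumin, with the label Notch1/2-KO or without it. All these mice had an airway inflammation driven by an allergen, and the file headers of the OTII node libraries add OVA-HDM. Cultured knockout cells (2) and cultured wild type cells (2) were naive spleen T cells of OTII mice of both genotypes, grown for 7 days on plates coated with antibodies to CD3 and CD28, with IL-4 and with antibodies against IFN-γ and IL-12/23. The age and the strain of the mice, and the Cre line behind the knockout, are not given in the sources used here. The design text calls the replicates biological, but nothing says that they came from separate animals or cultures, so the spread between libraries may in part be technical.

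A G protein coupled receptor acts by loading the alpha subunit of its G protein with GTP, and the signal lasts until the GTP is split. RGS proteins speed that step through a shared domain and so shorten or damp signals from chemokine, lipid and neurotransmitter receptors. In lymphocytes they are best known for setting how strongly a cell follows chemokines and the egress lipid sphingosine 1-phosphate, and therefore how long it stays in a lymph node or tissue. Rgs1, Rgs2, Rgs3, Rgs16 and Rgs18 belong to the R4 subfamily of mostly small proteins, Rgs10 and Rgs14 to the R12 subfamily, and Rgs19, also called GAIP, to the RZ subfamily.

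Promoters are shown for the 3 members whose level was past the threshold between knockout and wild type node cells, since these moved the same way in that comparison. Each runs from 250 bases before to 50 bases after the start of the transcript used in the tables and is given 5′ to 3′ on the strand of the gene. They come from RefSeq (build GRCm38.p6, the assembly that mm10 names), and capitals mark matches to the motifs named after them.
Rgs16 (chr1:153740103-153740402, plus strand): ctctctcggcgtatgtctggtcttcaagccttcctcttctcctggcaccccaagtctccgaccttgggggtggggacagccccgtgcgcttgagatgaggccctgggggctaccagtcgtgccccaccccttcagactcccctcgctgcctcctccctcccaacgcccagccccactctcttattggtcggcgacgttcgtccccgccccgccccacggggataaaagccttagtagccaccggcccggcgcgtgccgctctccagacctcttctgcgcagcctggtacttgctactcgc
Rgs2 (chr1:144004100-144004399, minus strand): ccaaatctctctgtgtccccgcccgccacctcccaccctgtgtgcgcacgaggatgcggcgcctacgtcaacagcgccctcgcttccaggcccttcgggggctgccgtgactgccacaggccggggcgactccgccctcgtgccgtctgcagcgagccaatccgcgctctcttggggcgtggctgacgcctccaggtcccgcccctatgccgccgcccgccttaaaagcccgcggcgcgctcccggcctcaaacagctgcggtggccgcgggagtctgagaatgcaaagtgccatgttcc
Rgs3 (chr4:62619422-62619721, plus strand): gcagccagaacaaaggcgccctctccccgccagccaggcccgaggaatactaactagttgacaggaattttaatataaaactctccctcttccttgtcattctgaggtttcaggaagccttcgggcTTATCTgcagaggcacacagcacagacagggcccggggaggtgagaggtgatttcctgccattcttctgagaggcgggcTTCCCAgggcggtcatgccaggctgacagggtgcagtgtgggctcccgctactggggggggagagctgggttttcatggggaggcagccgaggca

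RefSeq promoters of the transcript in use were matched for 5 of the 8 members (Rgs2, Rgs3, Rgs10, Rgs16 and Rgs19). The letters searched on both strands were TGGGAA, the core bound by RBPJ, the DNA-binding partner of Notch, the cAMP response element TGACGTCA, and AGATAA, a form of the GATA motif. The first was in 25.6% of 32851 promoters of this length, the second in 1.79% and the third in 11.2%. The Rgs3 promoter above held the reverse of the RBPJ core at position -45 and the reverse of the GATA letters at -124 from the transcript start. The Rgs19 promoter held the RBPJ core at -189. None of the letters were in the windows of Rgs2, Rgs10 or Rgs16. A match is a run of letters and not a bound site.

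Read totals were 16.3 to 27.5 M (megareads) per library, as read back from the smallest steps of the deposited values. The deposited unit is RPKM, read density per kilobase of transcript relative to the library total, which allows levels to be compared between genes of different length. Levels below are scaled RPKM, in which 1 median-of-ratios factor per library puts the libraries on a common scale. The 8 listed T cell markers were all detected in every group, and so were the 8 Th2 markers found in the tables, except Ptgdr2, which was at 0 in the airway libraries. The Th2 sum was 1438 to 1536 scaled RPKM in airway and 1037 to 1659 in node reporter libraries, and 154 to 224 in all OTII libraries. The label Notch1/2-KO was checked first: Notch1 stood at 10.3, 8.13, 12.8 and 13.1 scaled RPKM in node knockout libraries, against 49.6, 49.2 and 46.9 in node wild type libraries. In culture it stood at 4.29 and 1.07 in knockout libraries, against 26.7 and 29.9 in wild type libraries. Notch2 was at 14.3 to 19.0 in node knockout libraries and 7.64 to 8.20 in node wild type libraries, and a level over the whole transcript cannot show a deleted exon. Airway libraries listed 12317 to 14385 genes at 0, against 12177 to 12982 in node reporter libraries, and of 3115 widely expressed genes 39, 53 and 2 were at 0 in the airway libraries and 1, 0 and 1 in the node reporter libraries.

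In the airway, Rgs1 was the most abundant member by a wide margin, and together with Rgs2 it differed between airway and node reporter cells. Rgs1 is known in B and T cells as a brake on chemokine-driven migration. It measured 3174, 2977 and 2432 scaled RPKM in the airway libraries, against 568, 725 and 590.0 in the node reporter libraries. The lowest airway library lay far above the highest node library, and by group mean Rgs1 ranked 8 of 24537 genes in the airway and 42 in the node reporter cells. The fitted log2 fold change was 2.19 (SE 0.14), a ratio of group means of 4.56. Rgs2, which acts preferentially on Gq, measured 120.4, 110.1 and 84.7 scaled RPKM in airway libraries, against 14.2, 22.6 and 14.8 in node reporter libraries. These groups did not overlap either, with a log2 fold change of 2.56 (SE 0.26). Of the 7 members tested, Rgs1 and Rgs2 were past the threshold as higher (limma on log2 values, Benjamini-Hochberg adjusted over all genes, 0.05), where 2.96% of the 10121 genes tested were called higher. No member was past it as lower, where 2.31% of genes were. Scaling bears on that split: 300 genes were called higher and 234 lower with a median log2 fold change of -0.07 over all genes, against 229 higher and 317 lower with a median of -0.20 on RPKM as deposited, and both members were called higher on either scale.

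Rgs16, known from mouse T cells as a limiter of chemokine responses, measured 22.4, 42.2 and 30.9 scaled RPKM in airway libraries, against 10.4, 16.1 and 17.8 in node reporter libraries. All airway libraries were above all node libraries, but the spread was wide, and the log2 fold change of 1.046 (SE 0.34) did not pass. Rgs19 was likewise separated without passing, at 77.0, 103 and 81.7 in airway and 64.0, 66.3 and 68.8 in node reporter libraries, with a log2 fold change of 0.38 (SE 0.18). Ranges did not overlap for 4 of 7 members, against 26.9% of all genes tested in that comparison. Rgs3, a larger family member with several isoforms, measured 1.08, 6.73 and 0.83 in airway libraries, against 8.37, 7.06 and 5.46 in node reporter libraries. One airway library stood within the node range and the other two well below it, and the log2 fold change of -1.35 (SE 0.64) did not pass. Rgs14, which binds Ras proteins as well as G alpha subunits, averaged 75.0 ± 18.2 in airway and 50.6 ± 14.4 in node reporter libraries (SD, n = 3 each), and Rgs10 averaged 117 ± 23.4 in airway and 123 ± 23.9 in node reporter libraries. The groups overlapped for both genes. The calls for Rgs1 and Rgs2 remained in each of the 6 fits without 1 library.

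Transcripts of other cells differed along with these members. The summed level of the macrophage list was 3411 to 7979 scaled RPKM in the airway libraries, with each of the 16 listed genes found in the tables detected in at least 1 of them, against 12.4 to 54.7 in node reporter libraries, where Mrc1, Marco, Itgax, Car4, Ctsk, Adgre1, Clec7a and Lpl were at 0. The basophil and mast cell sum was 182 to 324 in airway and 602 to 929 in node reporter libraries, with Fcer1a, Ms4a2, Gata2 and Prss34 at 0 in both. The eosinophil sum was 55.1 to 69.6 in airway and 6.75 to 16.8 in node reporter libraries, with Epx and Il5ra at 0 in both. The dendritic cell sum was 35.9 to 62.5 in airway and 14.8 to 33.1 in node reporter libraries, with Siglech, Clec9a and Ccl22 at 0 in both. The neutrophil sum was 5.16 to 17.3 in airway and 0 to 1.17 in node reporter libraries, with Camp, Ngp and Mmp8 at 0 in both. For the epithelial cell list the ranges overlapped, at 4.25 to 99.4 (median 50.1) in airway and 0.24 to 9.41 (median 3.18) in node reporter libraries. All 6 of its genes were detected in the airway, while Krt8, Krt19, Scgb1a1 and Cdh1 were at 0 in the node reporter libraries. The T cell sum was 4211 to 4691 in airway and 3401 to 3891 in node reporter libraries. Their part in the RGS levels was not tested, and in bulk RNA a change in the number of cells of a type and a change in RNA per cell cannot be told apart.

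**Figure D1:**
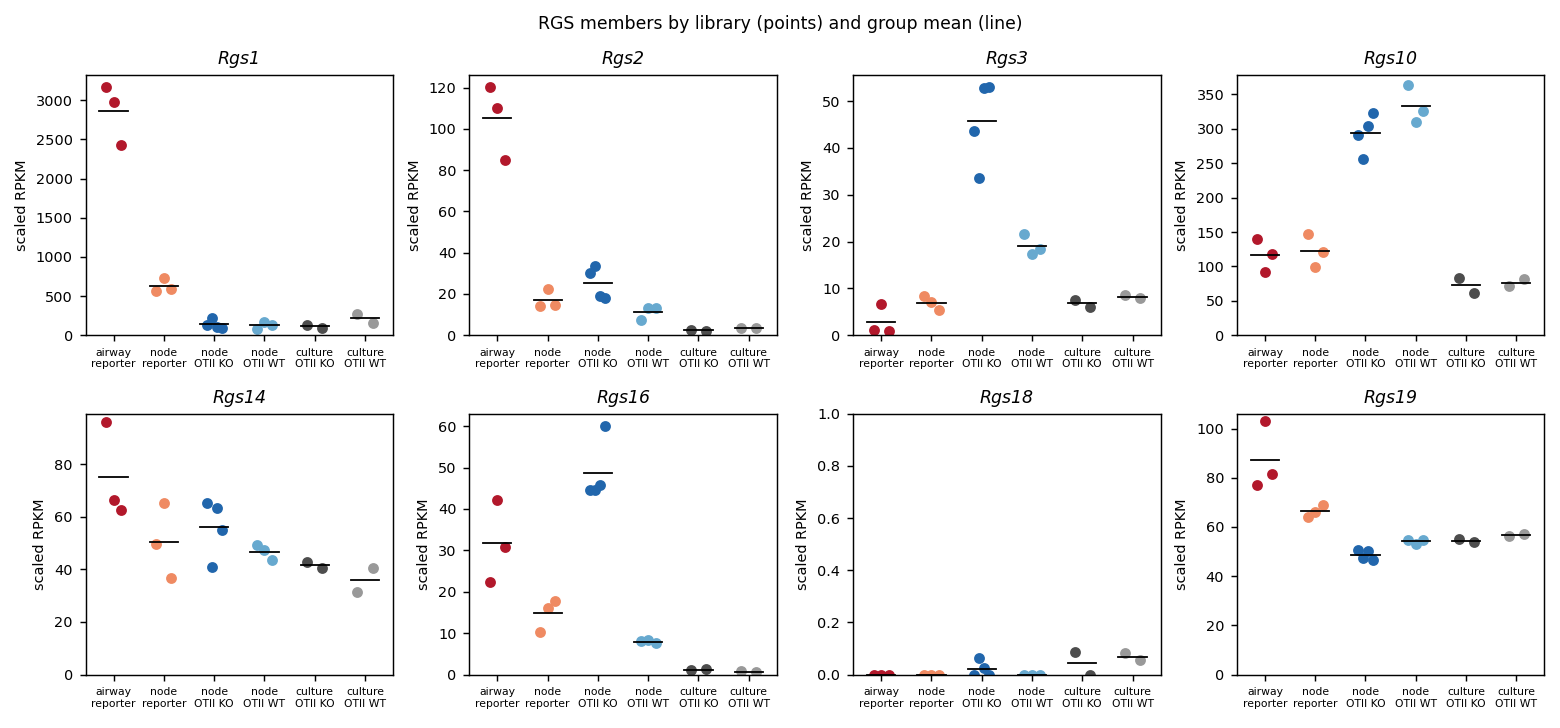
Scaled RPKM (linear axis from 0, a separate scale for each gene) of the 8 RGS genes in each library (points) with the group mean (line), for airway reporter, node reporter, node knockout, node wild type, cultured knockout and cultured wild type cells. Rgs1 and Rgs2 peaked in the airway, Rgs3 and Rgs16 in node knockout cells and Rgs10 in the OTII node cells, while Rgs18 had at most 3 reads in a library.

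In the lymph node, 3 members were higher in Notch1/2 knockout cells than in wild type cells: Rgs16, Rgs3 and Rgs2. Rgs16 measured 44.6, 44.5, 45.7 and 59.99 scaled RPKM in node knockout libraries, against 7.998, 8.25 and 7.67 in node wild type libraries. All knockout libraries stood far above all wild type libraries, and the fitted log2 fold change was 2.46 (SE 0.11), a ratio of means of 6.11. Its rank by group mean was 1640 of 24537 genes in node knockout cells and 6871 in node wild type cells. Rgs3 measured 43.7, 33.6, 52.7 and 53.1 in node knockout libraries, against 21.6, 17.4 and 18.5 in node wild type libraries. The groups did not overlap, with a log2 fold change of 1.20 (SE 0.16). Rgs2 measured 30.2, 33.4, 18.8 and 18.0 in node knockout libraries, against 7.33, 13.1 and 13.1 in node wild type libraries. Knockout libraries 1 and 2 were clearly above knockout libraries 3 and 4, and all 4 were above wild type, with a log2 fold change of 1.09 (SE 0.26). After the genotype, file headers give each of these libraries 2 numbers, such as KO1-2 for knockout library 2. The first is called the header number here. The Rgs2 split in knockout cells follows the header number, which libraries 1 and 2 share, as do 3 and 4. The second number is shared by knockout libraries 1 and 3, by knockout libraries 2 and 4, and by wild type libraries 1 and 2. Wild type library 1 carries a header number other than that of libraries 2 and 3. Likeness over 7735 genes did not follow the header number in knockout cells. There libraries 1 and 2 were the least alike (Pearson r of log2 values 0.960) and 1 and 3 the most (0.993). Libraries 3 and 4 stood at 0.991, and 2 and 4 at 0.976. Wild type libraries 2 and 3 stood at 0.992, and library 1 with them at 0.990 and 0.991. What either number stands for is not given, and if 1 of them marks a shared source, libraries that share it are not independent. With libraries of the same header number averaged, Rgs2 had a log2 fold change of 1.22 (SE 0.31) and remained past the threshold. That call was lost without wild type library 1, where the log2 fold change was 0.84, and with no filter on low genes. The 3 members called higher of 7 tested stand beside 10.4% of the 10884 genes tested called higher, and the 0 called lower beside 7.68%.

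No other member was past the threshold between the genotypes in the node. Rgs10, abundant in leukocytes, was the highest member there at 294 ± 28.1 scaled RPKM in knockout (SD, n = 4) and 333 ± 27.97 in wild type libraries (n = 3), with a log2 fold change of -0.18 (SE 0.10). Rgs1 measured 135, 218, 111 and 91.4 in knockout libraries, against 78.4, 167 and 134 in wild type libraries. These ranges overlapped widely, and the log2 fold change was 0.12 (SE 0.32). Rgs14 averaged 56.1 ± 10.99 in knockout and 46.8 ± 2.93 in wild type libraries, with a log2 fold change of 0.24 (SE 0.15). It passed the threshold only without knockout library 2, at 0.38. Rgs19 was slightly lower in knockout libraries, at 46.7 to 50.5, than in wild type libraries, at 53.2 to 54.9, and its log2 fold change of -0.15 (SE 0.07) did not pass. With Rgs19, Rgs2, Rgs3 and Rgs16, 4 of 7 members had ranges that did not overlap, against 31.2% of all genes tested. The sums of 4 marker lists did not overlap between genotypes in the node. The dendritic cell list summed to 10.7 to 20.3 scaled RPKM in knockout and 3.12 to 4.35 in wild type libraries, with 6 of 8 genes detected in each. The macrophage list summed to 5.71 to 9.52 in knockout and 12.4 to 14.9 in wild type libraries, with 15 of 16 detected in each. The basophil and mast cell list summed to 0.136 to 0.724 in knockout and 2.35 to 2.76 in wild type libraries, with Mcpt8, Fcer1a, Ms4a2 and Prss34 at 0 in both. The CD8 and NK cell list summed to 5.62 to 6.63 in knockout and 8.14 to 11.7 in wild type libraries, with 6 of 6 genes detected in each. The part of these transcripts in the result was not tested. The T cell sum was 2574 to 3117 in knockout and 2464 to 2702 in wild type libraries.

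In culture no member was past the threshold between knockout and wild type cells, and of 10984 genes tested 0% were called higher and 0% lower (limma), with 258 genes at an unadjusted p under 0.05 and 2 calls by limma voom on the reads recovered. Rgs1 measured 136 and 90.6 scaled RPKM in cultured knockout libraries, against 275 and 158 in cultured wild type libraries. The groups did not overlap, but each pair was far apart, and the log2 fold change of -0.91 (SE 0.29) did not pass. It did pass without cultured knockout library 1, at -1.19. Rgs16 measured 1.012 and 1.23 in cultured knockout libraries, against 0.77 and 0.61 in cultured wild type libraries, from 45 and 55 reads against 35 and 28. These levels are near the filter, which the gene met through the knockout group alone, and the log2 fold change was 0.33 (SE 0.22). Rgs2 measured 2.63 and 2.18 in knockout and 3.38 and 3.43 in wild type cultures, with a log2 fold change of -0.37 (SE 0.19), and Rgs3 measured 7.51 and 6.09 in knockout and 8.61 and 7.87 in wild type cultures, with -0.25 (SE 0.18). For both genes the knockout cultures were the lower pair. With 2 libraries in each group such separation often arises by chance, and its share over all genes was not counted. Rgs10, Rgs14 and Rgs19 had log2 fold changes of -0.10 (SE 0.19), 0.21 (SE 0.17) and -0.06 (SE 0.15).

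The difference between the knockout effect in the node and that in culture was fitted as 1 contrast over the 4 OTII groups. It was 2.13 (SE 0.19) for Rgs16, 1.47 (SE 0.40) for Rgs2 and 1.45 (SE 0.25) for Rgs3, on the log2 scale. The pseudocount of 1 shrinks the cultured Rgs16 effect more than the node effect, which enlarges its contrast. The ratios of means, knockout over wild type, were 1.63 in culture and 6.11 in the node. Rgs16 and Rgs3 were past the threshold and Rgs2 was not, where 2.34% of the 11526 genes tested were called in the positive direction and 1.5% in the negative. No member was called in the negative direction. The Rgs3 call was lost without cultured knockout library 2, at 1.31, and without cultured wild type library 1, at 1.39. For the other 4 members the contrast lay between -0.10 and 1.03.

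Node cells and cultured cells of the same genotype differed most in Rgs16, Rgs10, Rgs2 and Rgs3. In knockout cells Rgs16 was at 48.7 ± 7.56 scaled RPKM in the node (SD, n = 4) and 1.12 ± 0.15 in culture (n = 2), with a log2 fold change of 4.54 (SE 0.15). In wild type cells it was at 7.97 ± 0.29 in the node (n = 3) and 0.69 ± 0.12 in culture (n = 2), with 2.41 (SE 0.13), where it entered the test through the node group alone. A pseudocount of 1 understates these low cultured levels: the ratios of means were 43.5 in knockout and 11.6 in wild type cells. Rgs10 was higher in the node in both genotypes, with a log2 fold change of 2.02 (SE 0.15) in knockout and 2.11 (SE 0.12) in wild type cells. Single values were 291, 257, 305 and 323 in node knockout libraries against 83.4 and 61.3 in cultured knockout libraries, and 364, 309 and 326 in node wild type libraries against 71.0 and 82.3 in cultured wild type libraries. No node library came near a cultured one. For Rgs2 the log2 fold change was 2.89 (SE 0.25) in knockout and 1.43 (SE 0.24) in wild type cells, and for Rgs3 it was 2.57 (SE 0.19) in knockout and 1.12 (SE 0.13) in wild type cells. All node libraries were above all cultured libraries of their genotype for both genes. The share of all genes tested that separate in this way, as Rgs10 also did, was not counted. The T cell sum was also higher in the node, at 2574 to 3117 in node and 1691 to 2087 in cultured knockout libraries and 2464 to 2702 in node and 1781 to 1902 in cultured wild type libraries. Sums of other lists differed without overlap as well. In knockout cells the macrophage sum was 5.71 to 9.52 in node and 4.41 to 4.58 in cultured libraries, the B cell sum 16.6 to 23.6 in node and 9.01 to 14.3 in cultured libraries, the CD8 and NK cell sum 5.62 to 6.63 in node and 12.4 to 18.2 in cultured libraries, and the basophil and mast cell sum 0.136 to 0.724 in node and 5.81 to 8.12 in cultured libraries. The platelet and eosinophil sums of knockout cells, both under 5 scaled RPKM, did not overlap either. In wild type cells the macrophage sum was 12.4 to 14.9 in node and 4.74 to 4.84 in cultured libraries, the B cell sum 16.3 to 21.3 in node and 8.47 to 11.01 in cultured libraries, the dendritic cell sum 3.12 to 4.35 in node and 17.7 to 21.9 in cultured libraries, the CD8 and NK cell sum 8.14 to 11.7 in node and 18.8 to 30.3 in cultured libraries, and the basophil and mast cell sum 2.35 to 2.76 in node and 6.68 to 16.3 in cultured libraries. Prss34 was at 0 in all OTII groups, and the part of these transcripts in the result was not tested. In each genotype these 4 of 7 members were called higher, where 13.7% of genes tested in knockout cells and 13.5% in wild type cells were called higher in the node. No member was called lower, where 15.3% of genes in knockout and 17.5% in wild type cells were. Rgs1, Rgs14 and Rgs19 did not pass in either genotype, with log2 fold changes of 0.24, 0.40 and -0.16 in knockout and -0.78, 0.38 and -0.06 in wild type cells. Rgs14 did pass without node knockout library 2, at 0.54, and in wild type cells without cultured library 2, at 0.55. Other settings called 5 members too: no filter on low genes in wild type cells, and averaged node libraries of the same header number in knockout cells.

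**Figure D2:**
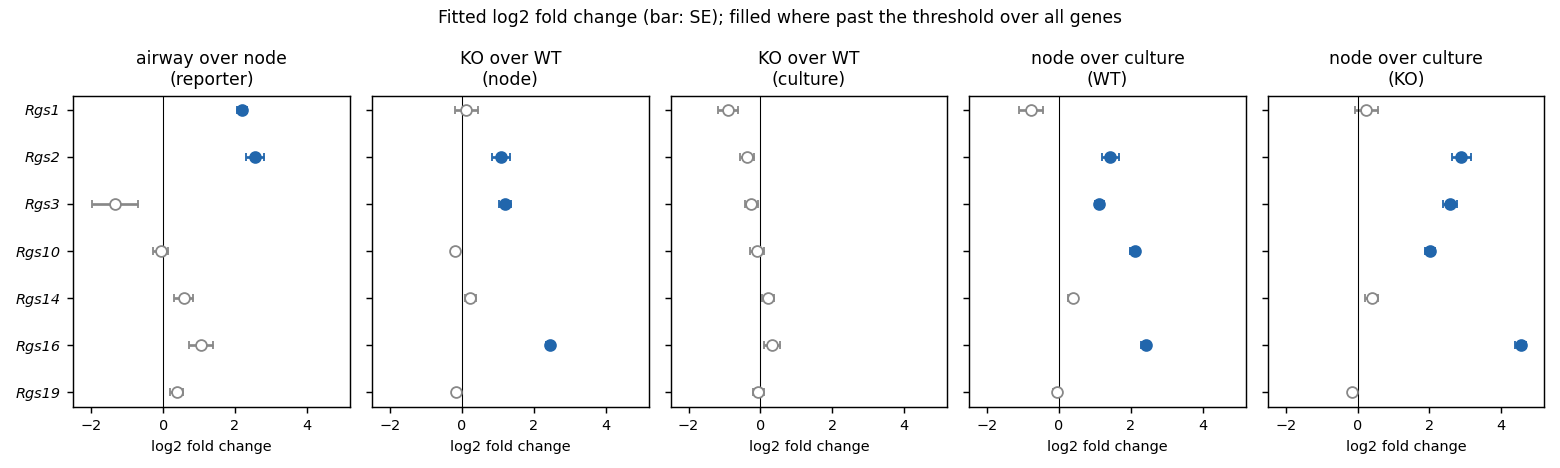
Fitted log2 fold change (points) with its SE (bars) for the 7 RGS genes tested, in the airway over node, knockout over wild type and node over culture comparisons. Filled points are past the threshold adjusted over all genes: 2 in the airway comparison, 3 in the node knockout comparison, none in culture and 4 in each node over culture comparison.

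Rgs18, best known from platelets and megakaryocytes, was at or near 0 throughout. It had 0 reads in all airway, node reporter and node wild type libraries, 0, 3, 1 and 0 reads in node knockout libraries, 3 and 0 in cultured knockout libraries and 3 and 2 in cultured wild type libraries. It passed no filter and was not tested, so 7 of the 8 members entered every comparison. The platelet marker sum was at most 5.04 scaled RPKM in any library, and Treml1 and Gp6 were at 0 in every group.

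Ordered by group mean, the members took different orders over the 6 groups. Rgs1 ran in the order airway, node reporter, cultured wild type, node knockout, node wild type and cultured knockout, and the last 4 overlapped with their neighbours. Rgs16 followed the order node knockout, airway, node reporter, node wild type, cultured knockout and cultured wild type, with no overlap between neighbours. Its highest group mean was 70.8 times its lowest. The same ratio was 43.6 for Rgs2, 25.3 for Rgs1, 15.9 for Rgs3, 4.60 for Rgs10, 2.09 for Rgs14 and 1.79 for Rgs19. Rgs14 and Rgs19 thus varied least over the groups. Levels of reporter and OTII cells are set side by side here without a test, since more than the kind of mouse differs between them. File headers of all OTII libraries begin with I18-1015, which no reporter header does, and what it stands for is not given. OTII libraries listed 9432 to 10128 genes at 0, against 12177 to 14385 in reporter libraries.

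The make-up of the summed RGS level shifted between settings. Rgs1 held 87.2 ± 0.59% of the summed scaled RPKM of the 8 genes in airway libraries and 69.1 ± 3.22% in node reporter libraries (SD, n = 3 each). In the OTII node it held 21.0 ± 7.99% in knockout (n = 4) and 21.0 ± 6.94% in wild type libraries (n = 3), where Rgs10 was the largest part at 44.8 ± 5.11% in knockout and 55.7 ± 6.14% in wild type libraries. Rgs16 and Rgs3 held 7.42 ± 1.25% and 6.99 ± 1.53% in node knockout libraries, against 1.33 ± 0.05% and 3.21 ± 0.44% in node wild type libraries. In culture Rgs1 was again the largest part, at 38.4 ± 4.15% in knockout and 53.4 ± 11.6% in wild type libraries (n = 2 each). The sum itself was 3279 ± 422 scaled RPKM in airway and 906 ± 83.5 in node reporter libraries, 657 ± 13.5 in node knockout and 599 ± 15.9 in node wild type libraries, and 292 ± 51.5 in cultured knockout and 398 ± 68.5 in cultured wild type libraries.

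**Figure D3:**
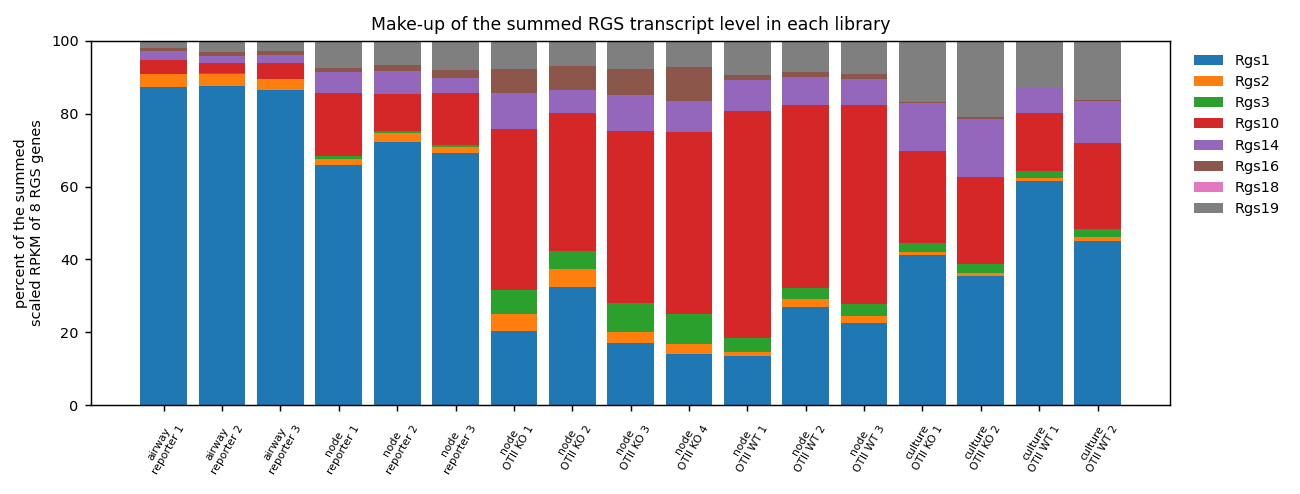
Percent of the summed scaled RPKM of the 8 RGS genes held by each gene, as 1 stacked bar per library from 0 to 100. Rgs1 fills 86.5% to 87.6% of the bar in airway libraries, and Rgs10 is the largest part in every OTII node library.

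Members of the wider family that reached a mean of 1 scaled RPKM in some group were Rgs9, Rgs11 and Rgs12. Rgs11 and Rgs9 are R7 proteins best known from the nervous system and retina, and Rgs11 rose in node knockout cells. It was at 3.26 ± 0.67 in knockout and 1.26 ± 0.21 in wild type node libraries, with a log2 fold change of 0.90 (SE 0.15, limma adjusted p = 0.00353). Rgs9 was at 1.18 ± 0.37 in knockout and 0.31 ± 0.02 in wild type node libraries, with a log2 fold change of 0.72 (SE 0.16). It entered the test through the knockout group alone and had to differ, so no p is given for it. Rgs12, a long relative of Rgs14, was lower in the node than in culture. It stood at 2.42 ± 0.11 in node and 5.99 ± 0.09 in cultured knockout libraries, with -1.03 (SE 0.12, adjusted p = 0.000457), and at 1.92 ± 0.02 in node and 5.89 ± 0.39 in cultured wild type libraries, with -1.24 (SE 0.13, adjusted p = 0.000414). Rgs11 also fell in node against cultured wild type cells, by 1.39 (SE 0.32, adjusted p = 0.015), a call lost without node wild type library 1 (adjusted p = 0.0563). None of the 3 was past the threshold in the airway or the culture comparison.

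Among the receptors whose signals RGS proteins shorten, chemokine receptors changed in both directions in the node. Of 10 tested there, 3 were higher in knockout cells (Ccr8, Cxcr3 and Cx3cr1) and 3 lower (Ccr2, Ccr7 and Cxcr4), with a median log2 fold change of -0.03 against 0.02 over all genes tested, of which 10.4% were called higher and 7.68% lower. Ccr8, a receptor of Th2 and regulatory T cells, was at 86.8 ± 6.82 scaled RPKM in knockout and 21.5 ± 7.86 in wild type node libraries (log2 fold change 2.02, SE 0.21, limma adjusted p = 0.000356). Cxcr3, a Th1-associated receptor, was at 210 ± 31.6 in knockout and 61.6 ± 7.09 in wild type node libraries (1.74, SE 0.14, adjusted p = 8.64e-05). Ccr7, which guides cells to and within lymph nodes, fell to 26.8 ± 2.23 in knockout libraries, against 70.8 ± 4.55 in wild type libraries (-1.37, SE 0.09, adjusted p = 3.12e-05). Of 25 lipid and other receptors tested, 6 were higher and 7 lower in node knockout cells, with a median of 0.06, beside the same 10.4% and 7.68%. Counted among these receptors are Cx3cr1, Gpr34 and Gpr183, which reached 1 scaled RPKM in only 1 of the groups and so entered the test through the group where they are high. Gpr183, a receptor for oxysterols, was at 0.47 ± 0.18 in knockout and 17.1 ± 3.95 in wild type node libraries (-3.61, SE 0.16), and no p is given for it for that reason. S1pr1, the receptor through which T cells leave lymph nodes, was at 28.5 ± 6.15 in knockout and 63.1 ± 3.32 in wild type node libraries (-1.14, SE 0.14, adjusted p = 0.000914). The acid-sensing Gpr65 was at 13.8 ± 3.53 in knockout and 3.74 ± 0.24 in wild type node libraries (1.61, SE 0.18, adjusted p = 0.000521).

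Subunits, effectors and other regulators beside which RGS proteins act were also called in both directions in the node, where 10.4% of all genes tested were called higher in knockout cells and 7.68% lower. Of 9 G alpha subunits tested, Gna12 was higher and Gna15 lower. Of 11 beta and gamma subunits, Gng2 was higher, at 44.2 ± 3.43 scaled RPKM in knockout and 28.02 ± 2.47 in wild type node libraries (log2 fold change 0.64, SE 0.09, limma adjusted p = 0.00204), and Gngt2 lower. Of 7 other regulators of G alpha, Gpsm1, Arrb1 and Ric8b were higher, with Gpsm1 at 7.57 ± 1.53 in knockout and 3.47 ± 0.38 in wild type node libraries (0.93, SE 0.15, adjusted p = 0.00351). Of 12 proteins with an RGS homology domain, Grk5 was higher and Arhgef11 and Grk6 lower. Of 20 effectors, 7 were higher and 2 lower, among them the cAMP-making cyclase Adcy7 at 141 ± 7.31 in knockout and 101 ± 5.83 in wild type node libraries (0.48, SE 0.08, adjusted p = 0.00353), and the protein kinase A subunit Prkacb at 55.1 ± 2.19 in knockout and 37.5 ± 3.51 in wild type node libraries (0.55, SE 0.08, adjusted p = 0.0027). The calls for Gna12, Gna15, Gngt2, Arrb1, Ric8b, Grk6 and Arhgef11 were each lost in fits without 1 library, with highest adjusted p-values of 0.0804 to 0.166. In culture none of the 8 lists had a gene past the threshold, where 0 of all 10984 genes tested were called. In the difference between node and culture effects, Gpr183 (-3.79, SE 0.26, adjusted p = 5.05e-05), Ccr7 (-2.19, SE 0.26, adjusted p = 0.00118), S1pr1 (-1.74, SE 0.27, adjusted p = 0.00515), Cxcr3 (1.97, SE 0.22, adjusted p = 0.00076), Ccr8 (2.17, SE 0.34, adjusted p = 0.00564) and Gpr65 (2.40, SE 0.40, adjusted p = 0.00729) passed with the sign they had in the node.

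In the airway comparison the receptors past the threshold were all higher in the airway. Of 12 chemokine receptors tested, Ccr2, Ccr8 and Cxcr6 were higher in airway than in node reporter cells and none lower, with a median log2 fold change of 0.96 against -0.07 over all genes tested, of which 2.96% were called higher and 2.31% lower. Cxcr6, a receptor of tissue T cells, was at 1384 ± 145 scaled RPKM in airway and 480 ± 103 in node reporter libraries (1.54, SE 0.17, limma adjusted p = 0.00193). Ccr8 was at 510 ± 87.9 in airway and 181 ± 42.4 in node reporter libraries (1.499, SE 0.19, adjusted p = 0.00474). Of 27 lipid and other receptors, P2ry10, P2ry14 and Gpr171 were higher and none lower, beside the same 2.96% and 2.31%, with P2ry14, a receptor for UDP-sugars, at 36.7 ± 3.34 in airway and 4.77 ± 1.56 in node reporter libraries (2.74, SE 0.35, adjusted p = 0.00468). The call for Ccr2 was lost without node reporter library 1 or 2 (highest adjusted p = 0.0511), and those for Gpr171 and P2ry10 in most fits without 1 library (0.124 and 0.134). No G alpha, beta or gamma subunit, effector, RGS homology protein or other RGS gene passed there. The marker sums given above for other cells and for T cells moved with these receptors too, and their part was not tested.

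Between node and culture, wild type cells had 3 chemokine receptors higher and 7 lower of 13 tested, and 1 lipid or other receptor higher and 8 lower of 25, where 13.5% of all genes tested were called higher and 17.5% lower. Among those counted, Ccr9, Cxcr5, Ccr1, Ccr10, Cx3cr1 and P2ry14 reached 1 scaled RPKM in only 1 of the groups and entered the test through it. Cxcr5, the follicle-homing receptor, was at 28.3 ± 12.0 scaled RPKM in node and 0.31 ± 0.03 in cultured wild type libraries (log2 fold change 4.41, SE 0.29, with no p given for that reason), while Cxcr4 was at 32.7 ± 2.36 in node and 87.8 ± 10.4 in cultured wild type libraries (-1.40, SE 0.12, limma adjusted p = 0.000177). In knockout cells 4 chemokine receptors were higher and 4 lower of 12, and 4 lipid or other receptors higher and 13 lower of 26, where 13.7% of all genes tested were called higher and 15.3% lower. Those counted include Ccr6, Cxcr5, Ccr1, Gpr183 and P2ry14, which entered through 1 group only. Ccr7 was at 26.8 ± 2.23 in node and 146 ± 14.5 in cultured knockout libraries (-2.40, SE 0.12, adjusted p = 9.29e-06). The RGS-domain protein Snx25 was higher in the node in both genotypes, by 0.83 (SE 0.12, adjusted p = 0.00142) in knockout and 0.74 (SE 0.12, adjusted p = 0.00344) in wild type cells.

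The genes whose pattern over the 17 libraries was most like that of a member were ranked by Pearson r of log2 values among 8334 genes, as a description, since libraries of a group move together. For Rgs16 they were Plscr1 (r = 0.95), the interleukin 9 receptor gene Il9r (0.94) and Nrp1 (0.92). Il9r averaged 53.3 scaled RPKM in node knockout and 4.85 in node wild type libraries, 15.2 in airway and 19.5 in node reporter libraries. For Rgs3 they were Rxra (0.97), Slc28a2 (0.95) and Sema4c (0.94), and Rxra averaged 42.2 in node knockout and 16.0 in node wild type libraries. For Rgs2 they were Litaf (0.95), Galm (0.94) and Supt20 (0.94), for Rgs1 Jtb (0.98), Atp6ap2 (0.97) and Tmem50a (0.96), for Rgs10 Prkca (0.96), Arhgap31 (0.95) and Zfp36l1 (0.95), for Rgs19 Napa (0.96), Atp6v1d (0.96) and Klf7 (0.95), and for Rgs14 Htra2 (0.93), Ndufb10 (0.90) and Uba7 (0.87). Over the 11 OTII libraries alone the first match was Sri for Rgs16, Snrk for Rgs3, Raver2 for Rgs2, Pigf for Rgs1 and Izumo1r for Rgs10. Izumo1r, a folate receptor family gene of regulatory and follicular T cells, averaged 228 in node knockout and 382 in node wild type libraries, and 4.75 in cultured knockout and 5.46 in cultured wild type libraries.

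By position on mm10, 4 of the 8 members lie on chromosome 1. Rgs2 (chr1:143999338-144004149), Rgs1 (chr1:144244669-144249104) and Rgs18 (chr1:144752841-144775421) form a row on the minus strand that spans 776 kb with Rgs13 and Rgs21, both of which were at 0 in every group. Rgs1 and Rgs2 were both higher in the airway, while Rgs18 had no read in any airway library. Rgs16 (chr1:153740353-153745468, plus strand) lies apart from them, with Rgs8 42.7 kb upstream. The remaining members are Rgs3 (chr4:62619672-62659847), Rgs10 (chr7:128373625-128418172), Rgs14 (chr13:55369732-55384687) and Rgs19 (chr2:181688419-181693977).

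Rgs8, the family member nearest to Rgs16, was looked at after the values of Rgs16 were known. It had 22, 45, 35 and 43 reads in node knockout libraries, against 6, 5 and 5 in node wild type libraries, and 8 and 12 in cultured knockout libraries, against 19 and 20 in cultured wild type libraries. It had no read in any reporter library. Rgs8 stayed under the filter and was not tested.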

How the data were processed

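Smart-seq2 libraries of FACS-sorted or cultured mouse T cells (17, in 6 groups) were analysed. The authors deposited, for each library, 1 table of RPKM for 24537 genes. The submitters' processing notes name HISAT2 2.0.4 for alignment with mm10 as the build, and HOMER as a further tool. Below 100 reads, 99.1% to 99.9% of the deposited RPKM values were whole multiples of 1 read (tolerance 0.1 read), which gave the depth and the reads per gene. A median-of-ratios factor from 6796 genes (RPKM of 1 or more in every library) put the libraries on a common scale. A gene entered a test when its scaled RPKM reached 1 in at least n libraries, n being the size of the smaller group. The test was limma 3.58.1 run under R 4.3.3 (lmFit, then eBayes with a trend) on log2 values with a pseudocount of 1; p-values are two-sided and adjusted by Benjamini-Hochberg over all genes tested, with a threshold of 0.05. Fold changes on this scale understate changes of low genes, and a contrast of 2 effects can be overstated where 1 of them is at low levels. Tables were made with Python 3.11.15, pandas 2.3.3 and numpy 2.4.6, and the test was first run on simulated data.

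The members and all gene lists were chosen with earlier results of these data known. Named genes were the 8 members, other RGS genes with a group mean of at least 1, and in each list up to 3 called genes with the smallest p and a mean of at least 5; likeness took the 3 highest Pearson r. The 5 comparisons among OTII groups share libraries with each other. Samples were grouped by their titles. No batch is named in the labels. Replicates within each group differed beyond sampling noise and were all kept. Alternatives were a pseudocount of 0.1, no filter, RPKM as deposited, limma voom on recovered reads, a replicate block, the 4 OTII groups in 1 fit, leaving out each library, and, chosen after seeing the data, averaging node libraries whose file headers share the first number and crossing the culture numbers.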

Additional observations from a re-analysis of the deposited data

Results flagged for a closer look

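Rgs16 in node knockout cells held 1 library far from the others: library 4 was at 59.99 scaled RPKM, and the gap to the next library made up 0.92 of the range of the group. This was the only group with enough libraries for that check, 7 members were looked at in it, and chance flags about 1 in 20 groups. Without that library Rgs16 remained past the threshold between knockout and wild type node cells.

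The knockout effect differed between node and culture for Rgs16, by 2.13 on the log2 scale, and for Rgs3, by 1.45, in the interaction contrast of limma over the 4 OTII groups. Both genes were higher in all 4 node knockout libraries than in all 3 node wild type libraries. In culture Rgs16 was higher in both knockout libraries and Rgs3 lower in both, but neither was past the threshold there. Groups that small often separate by chance, so no knockout effect in culture is read from this. The members were chosen on values of these libraries, so these are descriptions.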

How the results depend on the processing

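Of 545 member fold changes under other settings, 522 moved by less than the spread and 0 reversed where called; of 946 values of pathway genes, 821 kept their call and direction and 125 lost the call. Calls over all genes moved by over 1.5 times in 28 of 78 settings and member calls in 4 of 78. In the airway comparison the 534 calls became 246 with limma voom and 225 with no filter, and 113 to 554 when 1 library was left out. Between knockout and wild type in the node, 1970 calls became 1015 to 2721 without 1 library, and in culture 0 became 1 with the 4 OTII groups in 1 fit, 2 with voom and 0 to 66 without 1 library. Node over culture gave 3454 calls in wild type (2203 to 4354 without 1 library) and 3259 in knockout cells (1702 to 4243). The contrast of effects gave 443 calls, 257 with node libraries of the same header number averaged, and 195 to 555 without 1 library. Members called numbered 2 to 4 between knockout and wild type in the node, 0 to 1 in culture and 1 to 2 in the contrast without 1 library. The cause of these changes was not tested.

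Replicate numbers were tried as a block, although the labels tie them to no shared animal or day. Deviations of same-numbered libraries correlated at -0.51 to -0.0075 between node knockout and wild type and at -0.0068 to 0.0089 in the airway comparison (3 pairs each), at 0.11 and 0.19 between node and culture in knockout cells, and at -0.12 and 0.44 in wild type cells (2 pairs each). No comparison with 3 pairs had every correlation over 0.1, and the numbers were not taken to pair libraries. Deviations are from the group mean and sum to 0 within a group. With so few libraries, positive and negative correlations are therefore forced to occur together, and these values cannot settle whether libraries are paired. Node knockout and wild type libraries with different replicate numbers correlated at -0.62 to 0.68. The highest values were 0.68 for knockout library 2 with wild type library 3 and 0.57 for knockout library 1 with wild type library 2. In both pairs the file headers share the second number. Other pairs that share it stood at -0.0075 to 0.34. What such libraries share was not tested, and pairing by the numbers in the file headers was not tried. The replicate block gave 629 calls between knockout and wild type in the node, 2008 between node and culture in knockout cells, 136 in the contrast and 65 in culture, where 1 member, Rgs1, was then called. With node over culture in wild type cells it also called Rgs1, at -0.86. Crossing the numbers in culture, where their correlation was -0.26, gave 7 calls under that replicate block. The block changed no other member call.

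Precision is limited by 2 to 4 libraries per group and, for Rgs16 in culture and Rgs18 and Rgs8 everywhere, by few reads.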
